A study of Mus musculus with 6 samples.

Results

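Semaphorins, plexins and neuropilins were read in the right atria (RAs) of P21 mice that had received sham or aortocaval fistula surgery at P7. A protein-coding gene was taken as a member when its symbol named a semaphorin of the vertebrate classes 3 to 7, a plexin of the families A to D, or Nrp1 or Nrp2. This gave 31 of the 54093 genes of the table, of which 20 encode semaphorins, 9 plexins and 2 neuropilins. The fistula joins the abdominal aorta to the inferior vena cava and loads the RA with volume (VO), and the sham mice had surgery without it. Both groups were C57BL/6 mice of the WT genotype, with 3 libraries of RA tissue in each, named here from sham 1 to VO 3. The labels do not say whether a library is 1 mouse or several pooled mice, so p-values measure the spread between these libraries, which may be technical.

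Semaphorins are secreted or membrane-bound ligands that steer the growth of axons and vessels and the movement of cells. Plexins are their receptors and act on small GTPases and the cytoskeleton, and neuropilins are the ligand-binding partners that most class 3 semaphorins need in order to signal through A plexins. Neuropilins also bind vascular endothelial growth factors. In the developing heart this family is known for its part in outflow tract septation, in the patterning of veins and in the guidance of sympathetic nerves.

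Each library held 15963082 to 17237903 fragments on genes. Levels are in FPKM, fragments divided by gene length in kilobases and by library size, and 15.6 to 18.1 fragments per kilobase made up 1 FPKM. A value after ± is the SD over the 3 libraries of a group. The RA label was checked against markers: the sum of 8 atrial cardiomyocyte genes ran from 10090 to 27071 FPKM. The sum of 4 ventricular genes was 92.7 to 308 FPKM and differed between libraries. The largest of them, Myl3, was 246, 117 and 177 FPKM in sham 1, 2 and 3 and 83.8, 102 and 121 in VO 1, 2 and 3. Myl2 was 60.4 and 56.0 FPKM in sham 1 and sham 3, 20.6 in VO 3 and 1.54 to 6.95 in the other libraries. Irx4 was under 1 in all 6. The sum of 7 skeletal muscle genes was 146.6 to 201 FPKM in sham and 58.4 to 102 in VO, nearly all of it Ckm, which heart muscle also makes, and Myh1 was listed at 0. VO 1 stood apart in its macrophage markers, VO 3 in its fat and nerve markers, and sham 1 and VO 1 in their red cell markers. The values of these markers are given below.

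All 31 members were above 0 in every library. A mean of at least 1 FPKM over the 6 libraries was reached by 26 of them, and these were tested. Promoter windows from RefSeq on GRCm38.p6, from 250 bases before a start to 50 after it, were found for 26 of the 31 members, 37 windows in all. The windows below belong to Sema6c and Sema4c, which had an unadjusted p under 0.05 in the comparison of the groups, and to Sema5b, which was high in 1 library. Sema6a also had such a p and is not shown here. They run 5′ to 3′ on the strand of the gene, and capitals mark GGGCGG or its reverse complement CCGCCC, the core of the GC box.
Sema6c, chr3:95160170-95160469, plus strand: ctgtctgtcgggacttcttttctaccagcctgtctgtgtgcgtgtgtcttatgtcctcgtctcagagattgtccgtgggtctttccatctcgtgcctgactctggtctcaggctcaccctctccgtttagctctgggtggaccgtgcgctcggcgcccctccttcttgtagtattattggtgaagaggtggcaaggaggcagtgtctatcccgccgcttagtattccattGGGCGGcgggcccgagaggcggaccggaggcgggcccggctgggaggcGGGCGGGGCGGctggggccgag
Sema4c, chr1:36558332-36558631, minus strand: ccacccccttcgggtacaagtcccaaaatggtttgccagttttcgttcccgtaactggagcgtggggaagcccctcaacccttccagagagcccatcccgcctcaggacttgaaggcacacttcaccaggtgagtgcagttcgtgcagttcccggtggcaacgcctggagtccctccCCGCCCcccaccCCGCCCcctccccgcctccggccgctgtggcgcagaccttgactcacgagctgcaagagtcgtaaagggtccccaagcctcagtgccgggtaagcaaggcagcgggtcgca
Sema5b, chr16:35541112-35541411, plus strand: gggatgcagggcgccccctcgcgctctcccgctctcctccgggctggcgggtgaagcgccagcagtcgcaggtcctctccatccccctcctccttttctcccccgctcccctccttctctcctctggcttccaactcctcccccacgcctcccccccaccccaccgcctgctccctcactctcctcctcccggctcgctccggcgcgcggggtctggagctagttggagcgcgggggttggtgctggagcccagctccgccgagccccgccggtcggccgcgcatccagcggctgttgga
The shown Sema6c window held 3 matches, a pair of them overlapping, that of Sema4c 2 and that of Sema5b 0, although the last had the highest GC content of the shown windows at 73.0%. Sema6c and Sema4c each have a second window, not shown, with 0 and 3 matches, respectively. Among the member windows 27 of 37, or 73%, held the motif on either strand, against 35.7% of all 32851 windows of the same length. The median window of the members held 15 CpG sites against 7 in all windows. The TATA motif TATAAA was in 0 of the 37 and in 13.6% of all windows. The motif AGATAA, bound by GATA factors, was in 0 of the 37 and in 11.2% of all windows. The E-box CACGTG was in 3 windows, or 8.11% against 7.15%, and a CArG box and a MEF2 site were each in 1, or 2.7% against 1.63% and 3.19%. These matches describe letters in the windows and not binding.

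The 5 members with the highest mean were a pair of plexins, a neuropilin and a pair of class 6 semaphorins. Plxnd1 (ENSMUSG00000030123, chromosome 6, 115954811 to 115995005), a plexin of endothelial cells, was read at 19.1, 23.0 and 21.02 FPKM in sham 1, 2 and 3 and at 25.5, 23.5 and 22.9 in VO 1, 2 and 3. Plxnb2 (ENSMUSG00000036606, chromosome 15, 89155549 to 89180788), a receptor for class 4 semaphorins, was read at 16.2, 20.2 and 18.1 FPKM in sham and at 28.9, 19.3 and 16.8 in VO, in the same order. For both plexins sham 1 was the lowest library and VO 1 the highest, and the groups overlapped. Nrp1 (ENSMUSG00000025810, chromosome 8, 128358604 to 128503363), the co-receptor of Sema3a and of VEGF-A, stood at 14.7, 15.3 and 12.2 FPKM in sham and 15.6, 13.1 and 15.8 in VO. Its values overlapped throughout. Sema6d, a transmembrane ligand of Plxna1, had 7.97, 9.67 and 8.87 FPKM in sham and 12.3, 9.97 and 8.67 in VO, and here too VO 1 was the highest library. Sema6c came between Nrp1 and Sema6d and is described with the comparison of the groups. Within each library Nrp1 lay below both plexins, although Nrp1 in VO 3 came close to Plxnb2 in sham 1. The order of Plxnd1 and Plxnb2 was not the same throughout. Plxnd1 was the higher in every library but VO 1, where Plxnb2 lay above every value of Plxnd1.

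**Figure D1:**
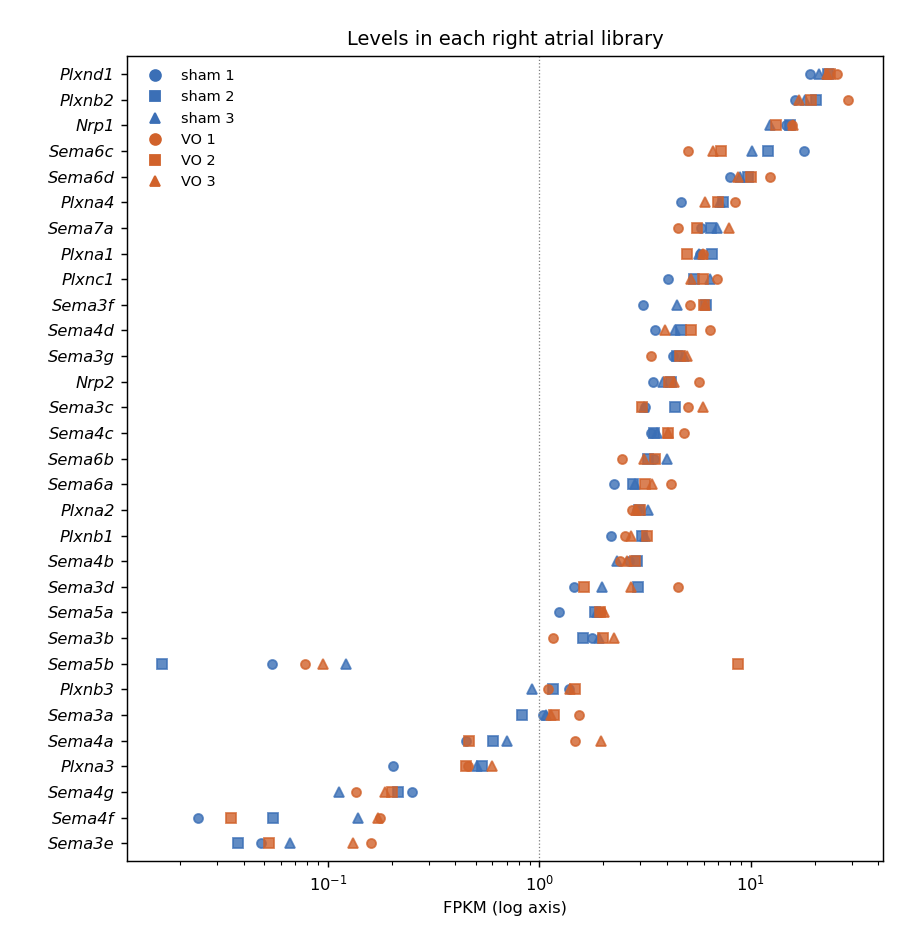
FPKM of the 31 members on a log axis, ordered by mean, with 1 point per library (blue sham, orange VO; circle, square and triangle for libraries 1, 2 and 3). The dotted line is the mean of 1 FPKM above which members were tested; Sema6c is the member whose VO points sit farthest below its sham points, and Sema5b has a lone VO 2 point at 8.72 FPKM.

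Summed by role, semaphorins came to 63.5 to 71.4 FPKM per library, plexins to 56.4 to 82.4 and neuropilins to 16.1 to 21.3. Plexin transcripts per length were thus of the same order as those of all ligands together. In all, 10 members had a mean of at least 5 FPKM and 16 a mean from 1 to 5. Between the lowest and the highest library, 23 of the 26 tested members varied by less than 2-fold, and the others were Sema3d, Sema5b and Sema6c.

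The comparison of VO with sham asks which genes differ in RAs that carried a volume load from P7 to P21. It used limma on log2(FPKM + 0.1) over 12627 genes, two-sided, and p-values were adjusted by Benjamini-Hochberg over the 12627 with a threshold of 0.05. No member passed this threshold, and the smallest adjusted p of a member in limma was 0.325, that of Sema6c. Over all genes, 0.00792% passed, which is 1 gene. At an unadjusted p under 0.05, Sema4c and Sema6a were higher in VO and Sema6c was lower, 3 of 26 or 11.5%, where the share over all tested genes was 12.0%. By direction the share over all genes was 3.89% for higher and 8.08% for lower. The libraries of VO and sham did not overlap in 4 members that were higher in VO (Sema3a, Sema4c, Sema5a and Sema6a) and in 1 that was lower (Sema6c), 19.2% of the members against 21.2% of all genes. Sema3a and Sema5b had sham means under 1 FPKM and passed the filter only through VO, so their being higher in VO is no support. Over all genes the groups did not overlap in 8.25% that were higher and in 12.9% that were lower. Taken over both directions, the members' shares were thus near those of the whole table. By direction they were not alike: without overlap, more members were higher than lower, and over all genes more were lower. The log2 fold change was above 0 in 18 of the 26 members, with a median of 0.20, whereas 48.5% of all tested genes were above 0, with a median of -0.01. When libraries were left out 1 at a time the median of the members ran from 0.10 without VO 1 to 0.24 without sham 2. The count of members with an unadjusted p under 0.05 was 1, that of Sema6c, without sham 1 and without VO 1. Over all genes the share was then 6.91% and 7.50%, respectively. The count without overlap was 8, 10 and 9 without sham 2, VO 2 and VO 3, when the share over all genes was 31.7%, 37.3% and 34.7%. The balance of directions depended on the scaling. With TPM in place of the median of ratios, 1085 genes were higher and 486 lower at an unadjusted p under 0.05, instead of 491 and 1020, the median of all genes moved by 0.14 and 24 of the 26 members were above 0.

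Sema6c (ENSMUSG00000038777, chromosome 3, 95160457 to 95174024) encodes a transmembrane class 6 semaphorin, and the start of its gene lies within the promoter window printed above. It was read at 17.8, 12.1 and 10.2 FPKM in sham 1, 2 and 3 and at 5.02, 7.26 and 6.59 in VO 1, 2 and 3, from 1644, 1236 and 981 and from 541, 702 and 643 fragments. Every VO library was below every sham library, with sham 1 the highest and VO 1 the lowest of the 6. The means were 13.3 ± 3.98 FPKM in sham and 6.29 ± 1.15 in VO (SD, n = 3 libraries each). The log2 fold change was -1.05 (standard error 0.23, 95% interval -1.59 to -0.50), with an unadjusted p of 0.00259 and an adjusted p of 0.325 in limma. In 20 other settings, with 1 or 2 libraries left out among them, its unadjusted p lay between 0.00145 and 0.0108 and its adjusted p in limma between 0.242 and 0.632. Its log2 fold change was -0.83 without sham 1, -1.23 without sham 3 and -0.68 with both sham 1 and VO 1 left out, which was chosen after seeing the data.

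The atrial cardiomyocyte markers moved in the same direction as Sema6c. All 8 were lower in VO by the sign of the log2 fold change, and their median log2 fold change was -0.70. Of the 8, 5 or 62.5% had an unadjusted p under 0.05 in limma, against 12.0% of all tested genes, or 8.08% lower. The same 5 had no overlap between the groups, against 21.2% of all tested genes, or 12.9% lower. Their sum was 20977 to 27071 FPKM in sham and 10090 to 18218 in VO. The log2 level of Sema6c minus the mean log2 level of these 8 genes was -7.03, -7.25 and -7.54 in sham 1, 2 and 3 and -7.50, -7.84 and -7.60 in VO 1, 2 and 3. On this scale the groups overlapped, and the difference was -0.37. Which cells of the RA made Sema6c was not tested. In bulk RNA, fewer cells of a type and less RNA per cell cannot be told apart.

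Of the other class 6 ligands, Sema6b had a log2 fold change below 0, like Sema6c, and Sema6a and Sema6d above 0. Sema6a (ENSMUSG00000019647), a ligand of Plxna2 and Plxna4, had 2.26, 2.76 and 2.84 FPKM in sham 1, 2 and 3 and 4.18, 3.15 and 3.40 in VO 1, 2 and 3. All 3 VO libraries were above the sham libraries, and VO 1 was the highest. Its log2 fold change was 0.43 (standard error 0.16, 95% interval 0.05 to 0.81), with an unadjusted p of 0.0302 and an adjusted p of 0.410 in limma. The unadjusted p was no longer under 0.05 without sham 1, sham 2, VO 1 or VO 3. It was under 0.05 in 13 of the 19 alternatives in which Sema6a was tested. Sema6d had a log2 fold change of 0.21, with an interval of -0.15 to 0.57. Sema6b, a ligand of Plxna4, had means of 3.58 ± 0.376 FPKM in sham and 3.02 ± 0.538 in VO, a log2 fold change of -0.25 with an interval of -0.64 to 0.14. The class 6 sum was 25.9 to 31.5 FPKM in sham and 21.8 to 24.0 in VO. Sema6c took the first place of this class in each sham library, and Sema6d took it in each VO library.

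**Figure D2:**
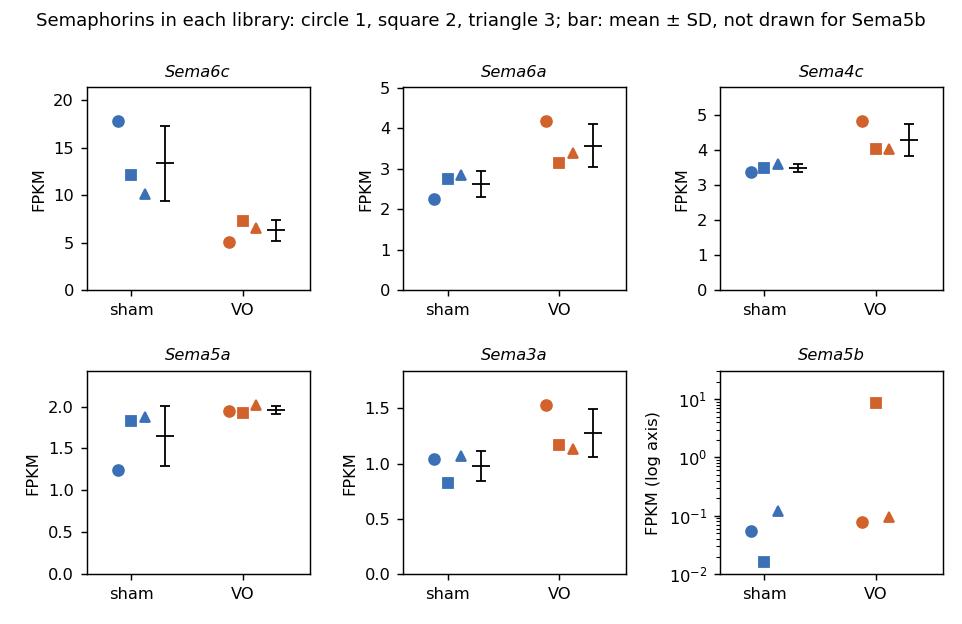
FPKM of 6 semaphorins in each library (circle, square and triangle for libraries 1, 2 and 3), with the mean and SD of 3 libraries beside them; Sema5b is on a log axis without mean. The VO points of Sema6c lie below the sham points, those of Sema6a, Sema4c, Sema5a and Sema3a lie above them, and Sema5b is high in VO 2 alone.

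Among the class 4 ligands, which are transmembrane and signal mainly through B plexins, Sema4c was the one with an unadjusted p under 0.05. Sema4c (ENSMUSG00000026121, chromosome 1, 36548639 to 36558349), a ligand of Plxnb2, was read at 3.37, 3.50 and 3.61 FPKM in sham and at 4.82, 4.03 and 4.04 in VO, in the order of the libraries. The sham libraries lay close together, and all VO libraries were above them. Its log2 fold change was 0.29 (standard error 0.12, 95% interval 0.01 to 0.57), with an unadjusted p of 0.0465 and an adjusted p of 0.414 in limma. With any 1 of the 6 libraries left out the unadjusted p was above 0.05. It was under 0.05 in 4 of the 19 alternatives in which Sema4c was tested. Sema4d, the ligand of Plxnb1, had means of 4.18 ± 0.604 FPKM in sham and 5.17 ± 1.23 in VO. VO 1 was its highest library at 6.38 FPKM and sham 1 its lowest at 3.51. Sema4b had means of 2.62 ± 0.291 FPKM in sham and 2.61 ± 0.222 in VO, with an interval of the log2 fold change from -0.35 to 0.34. The others were under a mean of 1 FPKM and were not tested: Sema4a ran from 0.452 to 1.96 FPKM, Sema4g from 0.113 to 0.251 and Sema4f from 0.0243 to 0.177.

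The secreted class 3 ligands were all low to moderate. Sema3f, which binds Nrp2, had means of 4.56 ± 1.53 FPKM in sham and 5.74 ± 0.487 in VO, with sham 1 the lowest library at 3.08. Sema3g, a ligand made by vascular cells, had 4.53 ± 0.272 FPKM in sham and 4.32 ± 0.854 in VO, and its interval on the log2 scale was -0.47 to 0.30. Sema3b had 1.76 ± 0.156 and 1.80 ± 0.571 FPKM, respectively. None of these passed an unadjusted p of 0.05. Sema3a (ENSMUSG00000028883), the repellent that shapes the sympathetic innervation of the heart, had 1.04, 0.824 and 1.07 FPKM in sham 1, 2 and 3 and 1.53, 1.17 and 1.14 in VO 1, 2 and 3. Its VO libraries lay above the sham libraries by a narrow margin, and the log2 fold change of 0.35 had an interval of -0.26 to 0.96. The mean of Sema3a was 0.978 FPKM in sham and 1.28 in VO, so the VO libraries carried it over the filter of 1 FPKM. Sema3e, which binds Plxnd1 without a neuropilin, was at most 0.160 FPKM, from 6 to 27 fragments per library, while Plxnd1 had the highest mean of all members.

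Sema3c and Sema3d, a ligand of outflow tract septation and a ligand of vein patterning, varied more between libraries of 1 group than between the groups. Sema3c had 3.15, 4.38 and 3.10 FPKM in sham 1, 2 and 3 and 5.04, 3.05 and 5.90 in VO 1, 2 and 3. Sema3d had 1.45, 2.92 and 1.97 FPKM in sham and 4.51, 1.63 and 2.72 in VO. Sema3d was highest in sham 2 and VO 1 within their groups, and Sema3c in sham 2 and VO 3. The sum of 5 epicardial and mesothelial markers was highest in sham 2 and VO 1, at 103 and 99.1 FPKM, and ran from 30.9 to 64.4 in the other four. None of the 5 markers was at 0. The part of this tissue in the values of Sema3c and Sema3d was not tested.

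Class 5 semaphorins carry thrombospondin repeats. Sema5a (ENSMUSG00000022231), a ligand of Plxnb3, had 1.24, 1.83 and 1.88 FPKM in sham 1, 2 and 3 and 1.95, 1.92 and 2.02 in VO 1, 2 and 3. The groups did not overlap, but sham 2 and sham 3 lay just under VO and sham 1 far under them. Without sham 1 the log2 fold change of 0.26 became 0.08. Sema5b (ENSMUSG00000052133, chromosome 16, 35541145 to 35664732), a repellent of axons, had 0.0545, 0.0164 and 0.121 FPKM in sham and 0.0778, 8.72 and 0.0945 in VO, from 6, 2 and 14 and from 10, 1006 and 11 fragments. VO 2 was 71.8 times the next highest library. This library alone lifted Sema5b over the filter, and without it the log2 fold change of 2.09 became 0.23. It was the only gene of the table with at least 100 fragments in VO 2 and 10 times the level of every other library, whereas VO 1 had 4 such genes and VO 3 had 38. A processed pseudogene, Gm5963, overlaps Sema5b on the other strand and had a mean of 0.257 FPKM. Sema7a, the class 7 ligand, is anchored by a lipid and binds Plxnc1 and integrin beta 1. Its means were 6.38 ± 0.571 FPKM in sham and 5.99 ± 1.72 in VO, with VO 1 the lowest and VO 3 the highest library.

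No plexin or neuropilin had an unadjusted p under 0.05, and in each of them the groups overlapped. Plxnd1 had means of 21.04 ± 1.98 FPKM in sham and 24.0 ± 1.37 in VO, a log2 fold change of 0.19 with an interval of -0.07 to 0.45. Plxnb2 had 18.2 ± 2.0 and 21.7 ± 6.37 FPKM. Its log2 fold change of 0.22 became -0.01 without VO 1. The A plexins pair with neuropilins or bind class 6 semaphorins directly. Plxna4 had 6.40 ± 1.48 FPKM in sham and 7.17 ± 1.19 in VO, and sham 1 was its lowest library at 4.69. Plxna1 had 6.00 ± 0.475 and 5.61 ± 0.537 FPKM, and Plxna2 had 3.04 ± 0.197 and 2.87 ± 0.125 FPKM. These were among the tightest of the members, with intervals of -0.38 to 0.18 and -0.36 to 0.21 on the log2 scale. Plxna3 was under the filter, from 0.204 to 0.594 FPKM.

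Of the other plexins, Plxnc1, the receptor of Sema7a, had 5.27 ± 1.18 FPKM in sham and 6.01 ± 0.845 in VO. Plxnb1, the receptor of Sema4d, had 2.80 ± 0.544 and 2.84 ± 0.360 FPKM. Plxnb3 had 1.15 ± 0.229 and 1.32 ± 0.200 FPKM. All of these differences were within the spread of the libraries. Nrp2, the co-receptor of Sema3f and of VEGF-C, had 3.43, 4.19 and 3.83 FPKM in sham 1, 2 and 3 and 5.65, 4.09 and 4.31 in VO 1, 2 and 3. Only VO 1 and VO 3 lay above all sham libraries, and the log2 fold change of 0.28 had an interval of -0.09 to 0.65. For Nrp1 the log2 fold change was 0.08, with an interval of -0.23 to 0.38.

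**Figure D3:**
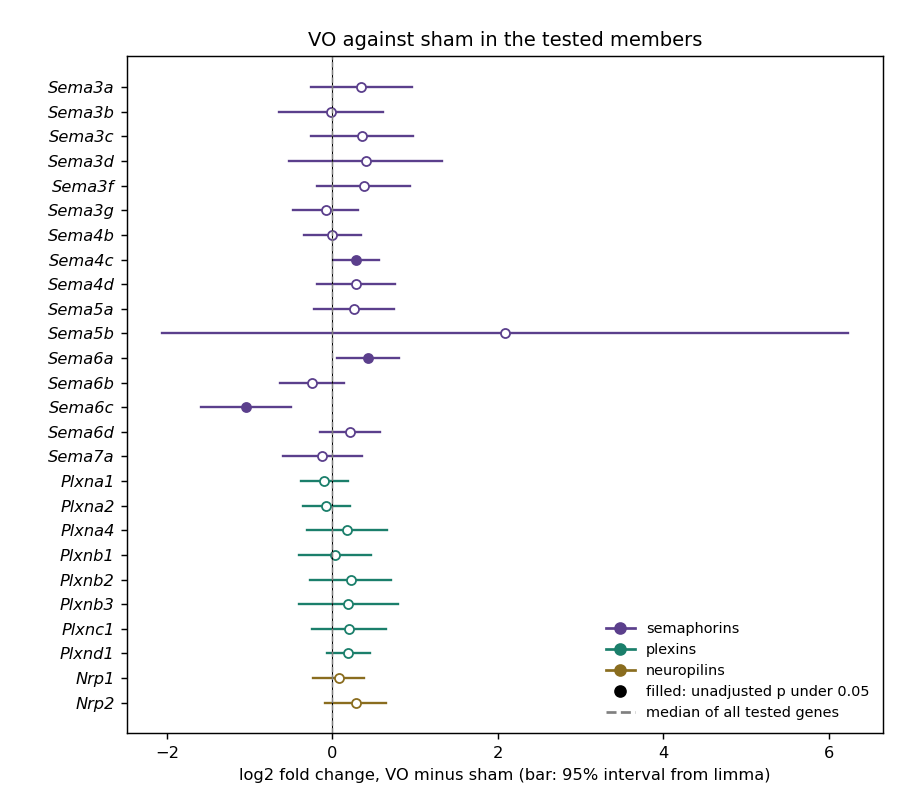
Log2 fold change of VO against sham for the 26 tested members, by role and name, with the 95% interval from limma as a bar; filled points have an unadjusted p under 0.05 and the dashed line is the median of all tested genes, -0.01. The interval of Sema6c lies below 0, those of Sema4c and Sema6a lie above 0 and that of Sema5b is the widest.

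The members' median was lowest in sham 1 and highest in VO 1. Sham 1 was the lowest library in 13 of the 26 members and VO 1 the highest in 11. After each gene was centred on its mean over the libraries, the median of the members was -0.24 in sham 1, 0.03 in sham 2, -0.08 in sham 3, 0.12 in VO 1, 0.07 in VO 2 and 0.03 in VO 3. With both sham 1 and VO 1 left out, an alternative chosen after seeing the data, the median log2 fold change was 0.05 and 15 of 26 members were above 0. Leaving out the lowest sham and the highest VO library makes a smaller shift likely by the choice itself, so no conclusion is drawn from it. Sema6c was then the remaining member with an unadjusted p under 0.05.

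Gene length moved with the same libraries. The members are long genes, with a median length of 7699.5 bases against 4039 over all tested genes, and 18 of the 26 were in the longest of 4 length groups of equal size. In sham 1 the median level of the shortest group of all genes was 0.25 above the mean of the libraries on the log2 scale and that of the longest group 0.12 below it, while in VO 1 they were 0.18 below and 0.08 above it. The median log2 fold change of all genes was -0.15, -0.06, 0.01 and 0.07 from the shortest to the longest group. With the trend on length and level removed from each library, also chosen after seeing the data, the median of the members was 0.10, 16 were above 0, and Sema6a and Sema6c had an unadjusted p under 0.05.

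**Figure D4:**
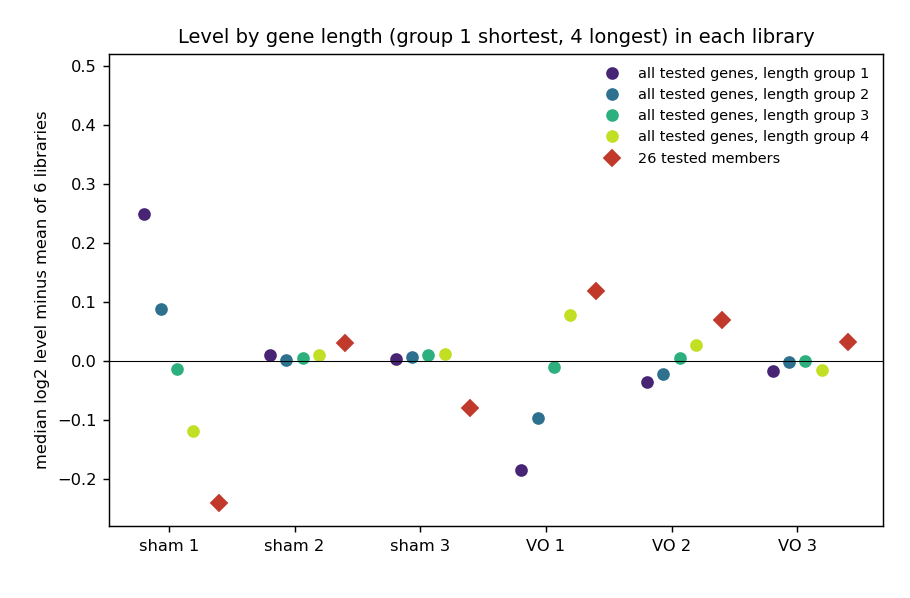
Median log2 level minus the mean of the 6 libraries, in each library, for all tested genes in 4 groups of gene length (circles) and for the 26 tested members (diamonds). The circles spread in sham 1 from 0.25 to -0.12 and in VO 1 from -0.18 to 0.08, and the diamonds of these libraries, at -0.24 and 0.12, lie beyond the circle of the longest genes.

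Markers of other cell types also differed between libraries. The sum of 8 macrophage and monocyte markers was 246 to 336 FPKM in sham, 886 in VO 1, and 283 and 349 in VO 2 and VO 3. Their log2 fold changes were above 0 in 8 of 8, against 48.5% of all tested genes. An unadjusted p under 0.05 was reached by 1 of them, or 12.5% against 12.0% of all tested genes. VO 1 was the highest library in 11 of the 26 tested members and the lowest in 6. The sum of 10 blood endothelial markers, the cells in which Plxnd1 and Nrp1 are best known, was 455 to 501 FPKM in sham and 424 to 472 in VO. Fibroblast markers came to 2079 to 2610 FPKM in sham and 1672 to 2229 in VO. The largest of them was Gsn, with means of 1306 ± 262 FPKM in sham and 837 ± 450 in VO. Of the 8 fibroblast markers, 5 had a log2 fold change above 0 and 3 below. Col3a1 was higher at an unadjusted p under 0.05, which is 12.5% of the 8 against 12.0% of all tested genes. The sum of 5 red cell markers was 6972 FPKM in sham 1 and 8580 in VO 1, and ran from 695 to 2382 in the other libraries. In VO 3 the sums of fat and nerve markers were 511 and 56.5 FPKM, against at most 46.9 and 15.7 in the other libraries. VO 3 was the highest library in 6 of the 26 tested members. The part of these cells in the members' values was not tested.

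The other genes of the pathway were described from a list of 57 co-receptors, VEGF ligands and effectors, of which 46 were tested. None had a higher level in VO at an unadjusted p under 0.05 and 3 had a lower one, 6.52% against 12.0% of all genes. The groups did not overlap in 4 that were higher and 5 that were lower, 19.6% against 21.2% of all genes. The median log2 fold change was 0.10. The 3 lower genes were small GTPases that plexins engage. Rhod had 7.16, 6.67 and 6.41 FPKM in sham 1, 2 and 3 and 4.89, 3.90 and 3.19 in VO 1, 2 and 3, a log2 fold change of -0.76 with a p of 0.00223. Rras, a target of the GTPase-activating domain of plexins, had 42.0, 35.3 and 37.4 FPKM in sham and 26.5, 28.0 and 31.6 in VO, a log2 fold change of -0.42 with a p of 0.00969. Rras2 had 20.4, 19.2 and 19.4 FPKM in sham and 15.7, 15.0 and 17.0 in VO, a log2 fold change of -0.31 with a p of 0.0151. In each of them every VO library was below every sham library, and the adjusted p in limma was 0.325, 0.391 and 0.404, respectively.

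Limk2, a kinase that inhibits cofilin, and Vegfb also had VO libraries below all sham libraries, with means of 6.19 ± 0.439 and 5.25 ± 0.174 FPKM and of 110.1 ± 4.28 and 86.5 ± 20.0 FPKM. The higher genes without overlap were Cd72, Fes, Fyn and Gsk3b. Cd72, a receptor of Sema4d on immune cells, had 7.34 FPKM in VO 1 and 1.95 to 2.72 in the other libraries, and VO 2 and VO 3, at 2.72 and 2.67, were also above every sham library. The kinases Fes, Fyn and Gsk3b, which act downstream of class 3 semaphorins and A plexins, had log2 fold changes of 0.33, 0.20 and 0.22. Vegfa, Kdr and Flt1, a ligand and receptors that work with neuropilins, overlapped between the groups. Vegfa had 42.3 ± 2.27 FPKM in sham and 44.0 ± 3.35 in VO, Kdr 15.0 ± 1.97 and 16.7 ± 1.06, and Flt1 8.76 ± 1.05 and 9.26 ± 1.53. Itgb1, the integrin partner of Sema7a, had 174 ± 6.31 and 176 ± 6.86 FPKM. Met, a partner of B plexins, was under the filter at 0.268 to 1.36 FPKM.

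**Figure D5:**
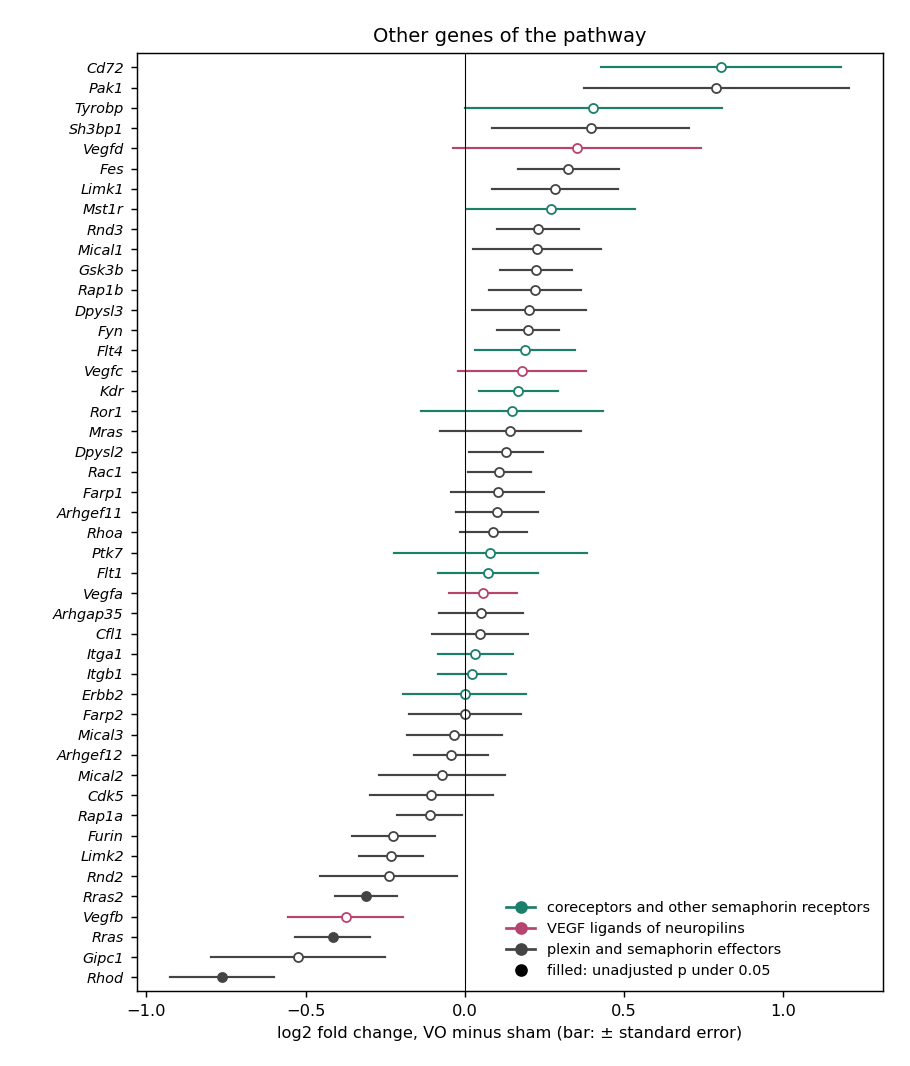
Log2 fold change of VO against sham for the 46 tested genes of the pathway list, ordered by value and coloured by role, with the standard error as a bar. The filled points, Rhod, Rras and Rras2, are the genes with an unadjusted p under 0.05, and all of them lie below 0.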

How the data were processed

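RNA-seq of RA tissue at P21 comprised 3 sham and 3 VO libraries, grouped by the submitters' labels. The submitters' processing notes name HISAT2 2.0.5, StringTie 1.3.3b, featureCounts 1.5.0-p3, DESeq2 1.16.1 and GATK 3.7 with GRCm38. The authors deposited FPKM values from featureCounts fragments and gene lengths, with a scaling between libraries already applied, and the annotation is not given in the sources used here. Whole fragments were recovered for 100% of values (tolerance 0.01). The table held 54093 complete genes, and 1 incomplete line was left out. All members had the coordinates of the GRCm38 annotation used for checking.

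Median-of-ratios scaling (factor 1.000 in each library) was applied to FPKM values, which were kept at a mean of at least 1 and taken as log2(FPKM + 0.1). A fold change on this scale understates the change of low genes. The fit used limma 3.58.1 in R 4.3.3 (lmFit, eBayes with trend, no covariates) in place of the authors' count test, and was tested on simulated data. An exact permutation of 3 against 3 libraries cannot give a p under 0.1. Plots used matplotlib 3.10.9 and Python 3.11.15.

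The members and lists were chosen with earlier results of these data known. Members without overlap or with an unadjusted p under 0.05, the 5 highest and the neuropilins were given in every library, and the other tested members by their means. Of the pathway list, genes meeting the same criteria and Vegfa, Kdr, Flt1, Met and Itgb1 were named. Alternatives covered the pseudocount, the filter, the scaling, the variance model, voom on recovered fragments, the replicate block and each library left out. Whether the counting used strand is not given in the sources used here. Of the members, 18 overlap another gene, whose mean reached at most 0.365 FPKM.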

Additional observations from a re-analysis of the deposited data

How the results depend on the processing

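Sema6c was lower in VO at an unadjusted p under 0.05 in all 20 alternatives, and no member passed the adjusted threshold in any of them. The alternatives share the same libraries and are not independent. FPKM as given, without median-of-ratios scaling, repeats the main fit, since the scaling factor was 1.000 in each library. The 5 group results changed as follows. The number of genes with an unadjusted p under 0.05, 1511 with all libraries, was 964 with both sham 1 and VO 1 left out, and 873 to 1997 when libraries were left out singly, lowest without sham 1 and highest without VO 2. The members with such a p, 3 with all libraries, were 1 at a mean FPKM of at least 5 (10 members tested), 1 with both sham 1 and VO 1 left out, and 1 to 3 when left out singly, with 1 without sham 1 and 1 without VO 1. Over all genes the share was 12.0% with all libraries, 14.7% at that mean and 7.63% with both left out. It was 6.91% to 15.8% with each left out. The members without overlap, 5 with all libraries, were 1 at a mean of at least 5, 8 with both left out and 5 to 10 with each left out, with 8, 10 and 9 without sham 2, VO 2 and VO 3. Over all genes the share without overlap rose too, from 21.2% with all libraries to 24.3% at that mean and 39.4% with both left out. Without sham 2, VO 2 and VO 3 it was 31.7%, 37.3% and 34.7%. The members' median, 0.20, was 0.34 with TPM, 0.050 with both left out, and 0.10 to 0.24 with each left out. The members' median lay 0.21 above that of all genes under both scalings. The pathway genes with an unadjusted p under 0.05, 3 with all libraries, were 7 with TPM and 3 to 6 with each library left out, with 5 without sham 1 and 6 without VO 2. Over all genes the share was 12.4% with TPM, 6.91% without sham 1 and 15.8% without VO 2.

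Replicate numbers were not used as pairs: the correlation of deviations from the group means between libraries of the same number was -0.108, 0.011 and -0.029. With the replicate number as a block, 932 genes and 1 member, Sema6c, had an unadjusted p under 0.05, and the smallest adjusted p of a member in limma was 0.601.

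The log2 fold changes of 14 of the 26 members changed sign in at least 1 alternative, among them Sema3d, at 0.40 with all libraries. With TPM these were Plxna1 (0.039), Plxna2 (0.059), Sema3b (0.12), Sema3g (0.053), Sema4b (0.13) and Sema7a (0.012). Plxnb1 was -0.027 with quantile normalization and -0.064 with the trend on length and level removed, and Plxnb3 was -0.031 with that trend removed. With both sham 1 and VO 1 left out these were Plxna4 (-0.15), Plxnb1 (-0.068), Plxnb2 (-0.091), Plxnc1 (-0.077), Sema3b (0.26), Sema3d (-0.18), Sema3g (0.041), Sema4b (0.060) and Sema4d (-0.0051). When libraries were left out singly, Nrp1 ran from -0.024 to 0.16, Plxna4 from -0.031 to 0.29, Plxnb1 from -0.14 to 0.12, Plxnb2 from -0.0086 to 0.38, Sema3b from -0.19 to 0.26, Sema3g from -0.19 to 0.083, Sema4b from -0.088 to 0.065 and Sema7a from -0.34 to 0.056. The causes of these changes were not tested.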

Other observations

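The ratio of the 2 neuropilins was compared between the groups. On the log2 scale Nrp1 over Nrp2 was 2.07, 1.85 and 1.65 in sham 1, 2 and 3 and 1.45, 1.66 and 1.85 in VO 1, 2 and 3. The means were 1.85 ± 0.21 and 1.65 ± 0.20 (SD, 3 libraries each), and the groups overlapped.

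Among the members under the filter, Sema4a, a transmembrane ligand that also acts on immune cells, had 0.452, 0.601 and 0.704 FPKM in sham 1, 2 and 3 and 1.48, 0.465 and 1.96 in VO 1, 2 and 3, from 38 to 174 fragments. It was highest in VO 1 and VO 3 and within the range of sham in VO 2. Sema3e had 7, 6 and 10 fragments in sham and 27, 8 and 20 in VO, so it was highest in the same pair of libraries.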
